A study of Bos taurus with 48 samples.

Results

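Transcription of 5 genes known from blood vessels and lymphatics, CDH5, CALCRL, JAM2, PROX1 and BMP4, was followed in the whole blood of Holstein-Friesian (H-F) and Jersey (J) bull calves before and after gradual weaning. The 5 genes were taken by identifier from the 24616 annotated genes of the deposited count table, and all 5 were among the 12677 genes that passed the filter on low counts (above 1 CPM, the count of a gene scaled to the size of the library, in at least 8 of 45 libraries). They were chosen because their levels differed between the breeds in these samples, some higher and some lower in J calves. The breed differences below therefore describe the choice and carry no test, whereas changes between days within a breed and variation between calves of a breed were not used in it.

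Blood was taken from the same calves before weaning (d -14) and after it (d 1 and d 8), the first sample being taken with all calves on milk replacer and concentrate, and the others after milk replacer had been withdrawn over 14 days. The comparison held 8 H-F and 7 J calves, each with 3 libraries, 45 in all. A further J calf, number 85, was left out as in the published analysis and its values are given separately. All calves had been vaccinated at arrival and were housed together. The J calves were on average older and lighter at arrival, came from 2 different farms while the H-F calves all came from 1, and were offered concentrate without restriction before weaning, although the H-F calves did not use up their own allowance. Breed, farm of origin and age therefore cannot be told apart. No calves were left unweaned, so weaning and the passing of time cannot be told apart either. Each library was 1 calf on 1 day, and the 45 libraries held 28088019 to 39095624 reads counted in genes (median 33666332), so that 1 CPM was about 28 to 39 reads.

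Endothelial cells line blood and lymphatic vessels and are held to each other by cadherins and immunoglobulin-like adhesion proteins at their junctions. They answer to peptide hormones such as adrenomedullin and to growth factors of the bone morphogenetic protein family, and those of lymphatic vessels are specified by a homeobox factor. The same genes are not restricted to endothelium. Several are also transcribed in leucocytes, megakaryocytes or their progenitors, and in whole blood circulating endothelial cells are rare. Because RNA was taken from unsorted blood, fewer cells of a type and less RNA per cell cannot be told apart.

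The endothelial label could not be checked against marker genes. Gene symbols were paired with identifiers only through the study's lists of genes that differed between the breeds, so that of 22 blood-vessel markers only 2, VWF and MMRN2, could be looked up, and of 10 lymphatic markers 0. The genes are therefore called by their names below. Levels are given in CPM, which is not corrected for gene length, and are compared between samples of the same gene only. The library kit did not keep strand, so reads of a gene and of any antisense transcript were counted together.

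CDH5 (ENSBTAG00000007421), which codes for VE-cadherin, the adhesion protein of endothelial adherens junctions, was scarce and lower in J calves. In H-F calves the lowest, median and highest levels were 0.399, 1.08 and 1.59 CPM on d -14, 0.683, 1.4 and 2.87 CPM on d 1 and 0.659, 1.59 and 2.42 CPM on d 8. In J calves they were 0.148, 0.566 and 0.809 CPM on d -14, 0.378, 0.659 and 0.90 CPM on d 1 and 0.282, 0.636 and 0.849 CPM on d 8. The medians of J calves lay below those of H-F calves on each day, but the breeds overlapped on each day, since H-F calves such as 49 on d -14 and 56 on d 1 lay within the J range. These levels rest on 14 to 86 reads per H-F library and 5 to 35 reads per J library. CDH5 exceeded 1 CPM in 16 of 24 H-F libraries and in 0 of 21 J libraries, so the gene passed the filter through the H-F calves alone.

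Relative to H-F calves, the log2 fold change of CDH5 in J calves was -0.93 (SE 0.331) on d -14, -1.14 (SE 0.321) on d 1 and -1.4 (SE 0.325) on d 8. On d -14 the difference missed the limits used to call a gene different (a fold change of 1.5 together with a false discovery rate, FDR, under 10%) when any 1 of H-F calves 32 and 33 or J calves 9, 57 and 77 was left out, with log2 fold changes of -1.06 to -0.77 over all alternatives tried. It was called on d 1 and d 8 whichever calf was left out.

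JAM2 (ENSBTAG00000000603), an immunoglobulin-like adhesion protein of endothelial junctions that binds leucocyte integrins, went the other way and had the largest fold change of the 5. In H-F calves the lowest, median and highest levels were 0.172, 0.366 and 1.66 CPM on d -14, 0.0819, 0.286 and 1.63 CPM on d 1 and 0.169, 0.241 and 1.54 CPM on d 8. J calves held 0.399, 1.85 and 5.55 CPM on d -14, 0.348, 1.70 and 5.19 CPM on d 1 and 0.535, 1.62 and 5.14 CPM on d 8. The highest H-F value on every day belonged to calf 20, the highest J value to calf 9 and the lowest J value to calf 6. J calf 6 lay among the H-F calves and H-F calf 20 among the J calves, so the breeds overlapped on every day. JAM2 exceeded 1 CPM in 4 of 24 H-F libraries and in 18 of 21 J libraries, with 3 to 58 reads in the former and 11 to 189 in the latter. It thus passed the filter mainly through the J calves.

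The log2 fold change of JAM2 was 1.99 (SE 0.575) on d -14, 2.05 (SE 0.585) on d 1 and 1.83 (SE 0.574) on d 8. Single calves decided much of its size. Without J calf 9 the values were 1.56, 1.61 and 1.4, the last of which was no longer called, and without H-F calf 20 they were 2.49, 2.60 and 2.24.

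CALCRL (ENSBTAG00000008483) codes for the calcitonin receptor-like receptor, which with its accessory proteins binds adrenomedullin and calcitonin gene-related peptide. In H-F calves its lowest, median and highest levels were 32.2, 39.5 and 48.6 CPM on d -14, 23.2, 31.2 and 51.9 CPM on d 1 and 19.6, 29.4 and 35.9 CPM on d 8. The J calves had 14.2, 21.7 and 28.6 CPM on d -14, 13, 16.1 and 22.1 CPM on d 1 and 13, 16.1 and 21.6 CPM on d 8. Every J calf lay below every H-F calf on d -14 and d 1. Such a lack of overlap with J lower was found for 0.671% of the genes tested on d -14 and 0.434% on d 1. On d 8 H-F calves 25, 48 and 49 lay at 19.6 to 20.2 CPM and so among the J calves. Averaged over the 3 days, the H-F calves spanned 27.3 to 43.7 CPM and the J calves 14.3 to 22.1 CPM.

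CALCRL was read 413 to 1815 times per library, and its breed difference had the smallest error of the 5. The log2 fold change was -0.92 (SE 0.156) on d -14, -1.0 (SE 0.157) on d 1 and -0.70 (SE 0.156) on d 8, and it was called on all 3 days under all 21 alternatives.

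BMP4 (ENSBTAG00000003835), a secreted ligand of the transforming growth factor-beta family, was higher in J calves. The lowest, median and highest H-F levels were 1.74, 1.92 and 3.1 CPM on d -14, 1.43, 2.37 and 3.34 CPM on d 1 and 2.07, 2.79 and 3.61 CPM on d 8. In the J calves they were 2.12, 4.73 and 5.15 CPM on d -14, 2.53, 3.95 and 8.97 CPM on d 1 and 2.99, 5.09 and 6.91 CPM on d 8. J calves 6, 7, 9 and 13 averaged 4.59 to 6.42 CPM over the 3 days, whereas J calves 57, 60 and 77 averaged 2.71 to 2.93 CPM, within the H-F span of 1.92 to 3.22 CPM. The J calves came from 2 farms, and which calf came from which is not given in the labels, so farm was not tested.

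Each library held 53 to 124 BMP4 reads in H-F calves and 64 to 271 in J calves. The log2 fold change was 0.87 (SE 0.242) on d -14, 1.05 (SE 0.240) on d 1 and 0.71 (SE 0.239) on d 8. On d 8 the call was lost when H-F calf 20, H-F calf 33 or J calf 7 was left out, and over all alternatives the d 8 value ranged from 0.59 to 0.80.

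PROX1 (ENSBTAG00000010978), the homeobox transcription factor that specifies lymphatic endothelium, was also higher in J calves. H-F calves had lowest, median and highest levels of 1.53, 3.61 and 5.66 CPM on d -14, 1.85, 3.32 and 4.26 CPM on d 1 and 2.20, 3.31 and 4.86 CPM on d 8. The corresponding J levels were 4.60, 5.93 and 9.01 CPM on d -14, 3.03, 5.76 and 10.3 CPM on d 1 and 4.26, 5.0 and 9.30 CPM on d 8. Only the upper H-F calves reached the J range, which were calves 25 and 27 on d -14, calves 20, 25, 27 and 49 on d 1 and calf 27 on d 8. The highest J value was that of calf 57 on d -14 and that of calf 9 on d 1 and d 8.

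PROX1 was read 49 to 186 times per H-F library and 96 to 311 times per J library. Its log2 fold change was 0.74 (SE 0.227) on d -14, 0.93 (SE 0.228) on d 1 and 0.79 (SE 0.228) on d 8. The d -14 call was lost without J calf 57, with a log2 fold change of 0.62.

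**Figure D1:**
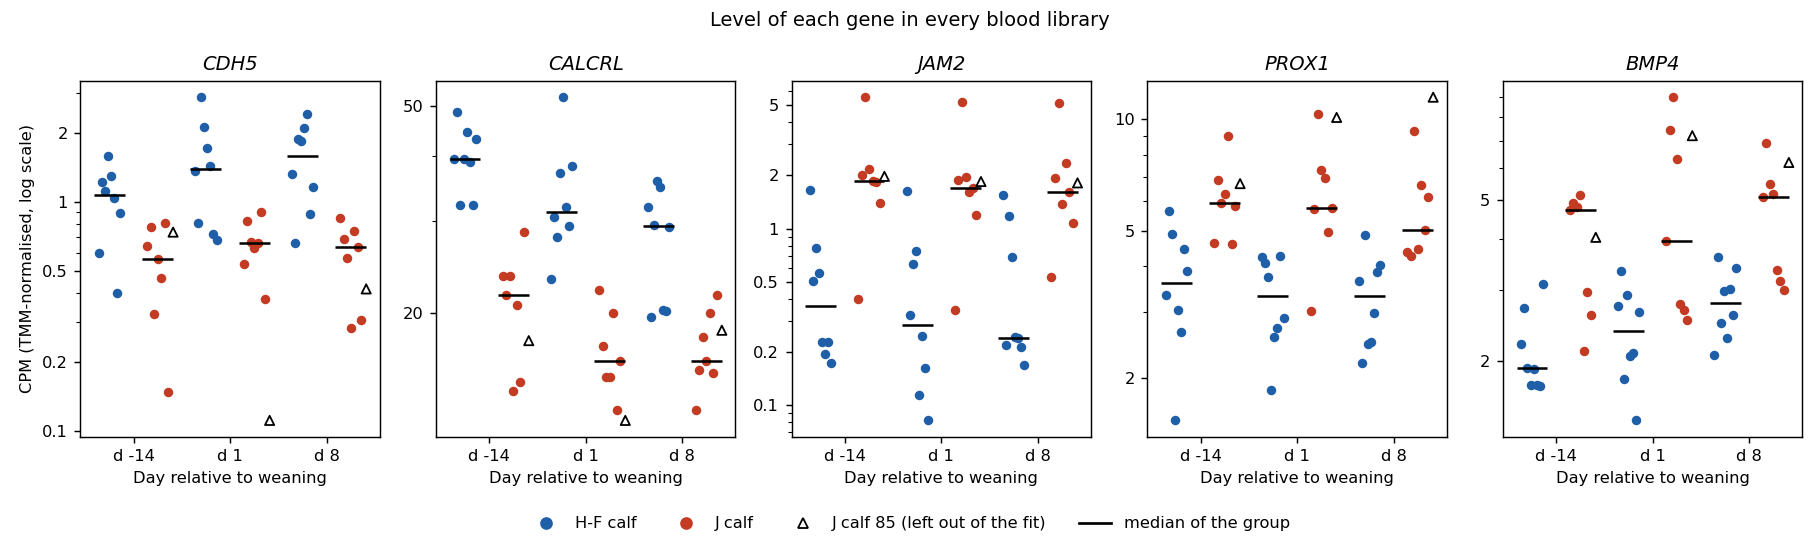
Level of CDH5, CALCRL, JAM2, PROX1 and BMP4 in every library, as CPM on a log axis, by day relative to weaning. Blue points are H-F calves (n = 8 per day), red points J calves (n = 7 per day), black lines group medians and open triangles J calf 85, which was left out. CALCRL of all J calves lies below all H-F calves on d -14 and d 1, and JAM2 of J calf 6 (0.348 to 0.535 CPM) lies among the H-F calves.

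All 5 genes met the call limits on all 3 days, against 4.1% of the 12677 genes on d -14, 3.73% on d 1 and 3.13% on d 8. Since the genes were picked on this contrast, nothing is read from that count. CDH5 and CALCRL were the lower genes and JAM2, PROX1 and BMP4 the higher ones, and no alternative turned any of these directions. The median log2 fold change over all genes was 0.01 on d -14 and 0.00 on the other days.

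**Figure D2:**
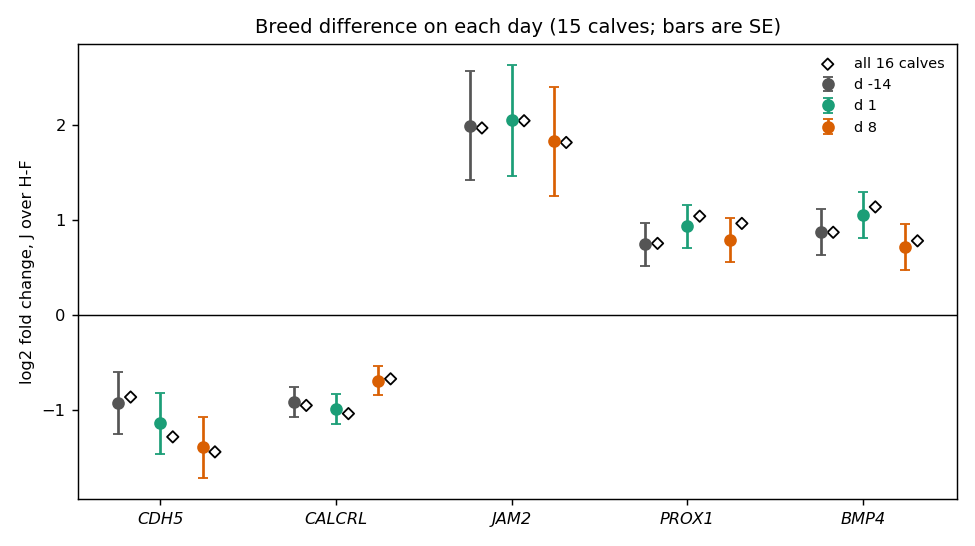
Log2 fold change of J relative to H-F calves for the 5 genes on each day. Filled points are the estimates from 15 calves with their SE as bars, and open diamonds are the estimates with all 16 calves. CDH5 and CALCRL lie between -1.4 and -0.70, PROX1 and BMP4 between 0.71 and 1.05, and JAM2 between 1.83 and 2.05 with the longest bars.

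J calf 85 is shown apart. With its libraries normalised together with all others, CDH5 was 0.738 CPM on d -14, 0.111 CPM on d 1 and 0.416 CPM on d 8, the d 1 value resting on 3 reads. PROX1 was 6.70, 10.1 and 11.5 CPM on the same days and BMP4 4.04, 7.21 and 6.19 CPM. JAM2 varied least in this calf, at 1.98, 1.85 and 1.81 CPM, and CALCRL was 17.7, 12.4 and 18.5 CPM. For each gene on each day the calf lay nearer to the median of the other J calves than to the H-F median. With it included the log2 fold changes ranged from -1.45 for CDH5 on d 8 to 2.04 for JAM2 on d 1, with all 5 genes called on all 3 days.

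Changes between days over weaning were tested within each breed, which the choice of genes did not use. In edgeR's quasi-likelihood test without a term for the calf, as in the published analysis, 0 of 30 changes (5 genes, 3 pairs of days, 2 breeds) met the call limits. In the background, 0.071% of genes were called from d -14 to d 8 in H-F calves and 0% for the other pairs of days. Of the 30 changes 1, CALCRL from d -14 to d 8 in H-F calves, had an unadjusted p under 0.05. DESeq2 and edgeR's exact test also called 0 of 30.

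Libraries of 1 calf deviated from their group means together, however (correlations of 0.40 to 0.85, against -0.58 to 0.30 between calves). With the calf as a block in the edgeR quasi-likelihood fit, CALCRL decreased from d -14 to d 8 in H-F calves by 0.54 on the log2 scale (95% confidence interval -0.79 to -0.30, adjusted p = 0.00615). It had been -0.53 (SE 0.149, edgeR adjusted p = 0.226) without the block. CALCRL was lower on d 8 in 8 of 8 H-F calves, by 0.13 to 1.31 on the log2 scale, a one-way movement that 2.62% of all genes shared. BMP4 increased over the same interval by 0.40 (95% confidence interval 0.14 to 0.65, edgeR adjusted p = 0.0492 with the block, 0.533 without it) and was higher in 7 of 8 H-F calves. CDH5 increased by 0.58 (95% confidence interval 0.19 to 0.97, edgeR adjusted p = 0.0559 with the block, 0.460 without it), again in 7 of 8 H-F calves, calf 25 being the exception. These 3 changes passed the FDR of 10% but not the fold change of 1.5, and with the block 13.8% of all genes passed that FDR, 6.88% higher and 6.96% lower, against 1.08% for both limits together. For the other H-F intervals 0 of 5 genes passed the FDR with the block, where 1.87% of genes passed from d -14 to d 1 (0.252% with the fold limit) and 0% from d 1 to d 8. In limma-voom with the calf as a random effect CDH5 also passed the fold limit (log2 fold change 0.59, limma adjusted p = 0.0808), as did 1.06% of genes, whereas BMP4 did not pass the FDR in that fit (limma adjusted p = 0.151). Over all alternatives the adjusted p ranged from 0.00348 to 0.741 for CALCRL, from 0.0492 to 0.836 for BMP4 and from 0.0559 to 0.810 for CDH5 (edgeR, limma and DESeq2).

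JAM2 and PROX1 did not pass the test in H-F calves. From d -14 to d 8 JAM2 changed by 0.05 on the log2 scale (95% confidence interval -0.30 to 0.40 with the block) and PROX1 by -0.12 (95% confidence interval -0.43 to 0.20 with the block). JAM2 was higher on d 8 in 4 of 8 H-F calves, as was PROX1.

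In J calves 0 of 5 genes passed the FDR of 10% between any 2 days, with or without the block. Of all genes, 0.0552% passed it with the block from d -14 to d 1 and 0.308% from d -14 to d 8 (0.205% with the fold limit). The largest value with the block was that of CDH5 from d -14 to d 1, 0.33 (95% confidence interval -0.18 to 0.83, edgeR adjusted p = 0.680). CALCRL differed from d -14 by -0.29 on d 1 and by -0.28 on d 8 (edgeR adjusted p = 0.552 and 0.673 with the block), and was lower in 6 of 7 and 5 of 7 J calves. BMP4 was higher on d 8 than on d -14 in 7 of 7 J calves, by 0.01 to 0.65 on the log2 scale, which 0.883% of genes shared, yet its mean change of 0.24 did not pass the test (edgeR adjusted p = 0.705 with the block). JAM2 was lower on d 1 than on d -14 in 7 of 7 J calves, as for 0.923% of genes, but only by 0.09 to 0.21 (mean change -0.15, edgeR adjusted p = 0.714 with the block).

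**Figure D3:**
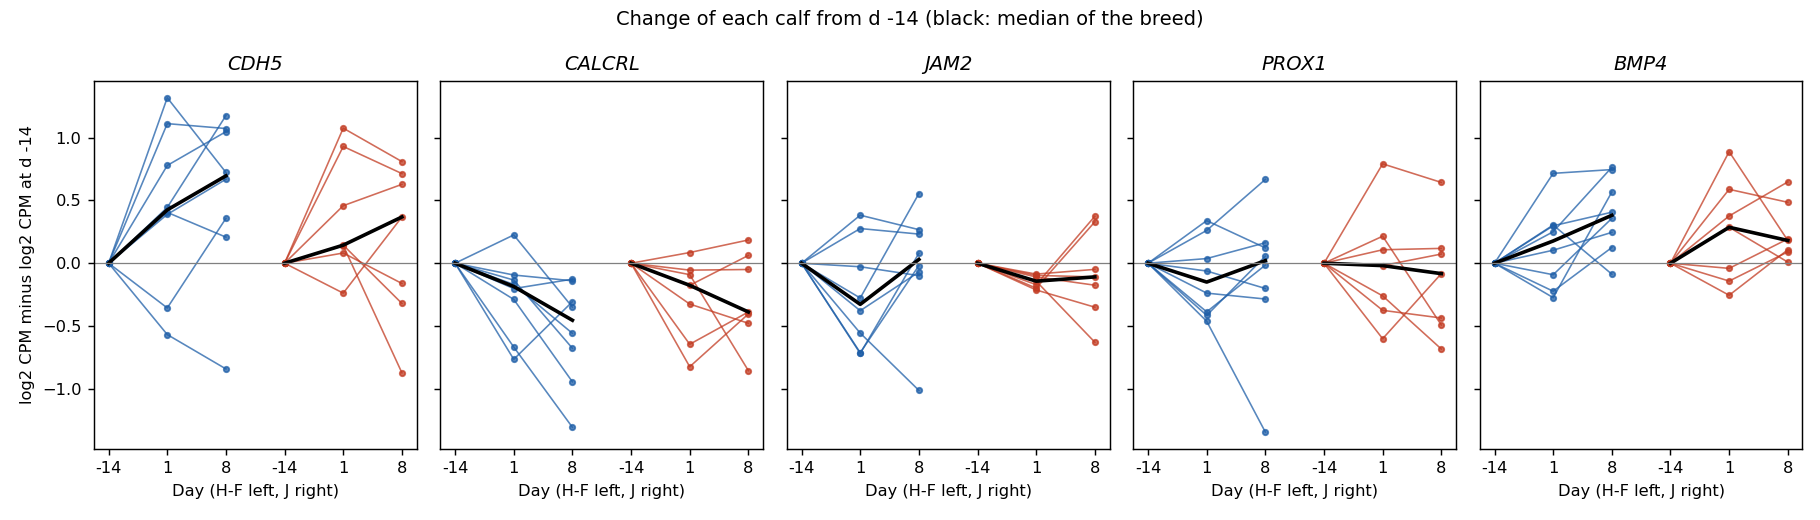
Change in log2 CPM of each calf from its own d -14 level, for H-F calves (blue, n = 8) and J calves (red, n = 7), with the median of the breed in black. CALCRL lies below 0 on d 8 in 8 of 8 H-F calves and in 5 of 7 J calves, while the JAM2 lines of the J calves run close together from d -14 to d 1.

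Whether the breeds changed differently was tested as the difference of the changes. Such a difference equals the breed difference on the later day minus that on d -14. The genes were chosen on breed differences, so the choice was not independent of this test. A lack of difference here may therefore partly reflect the choice. None of the 5 genes passed for d -14 to d 1 or d -14 to d 8, in edgeR with or without the block, in limma-voom or in DESeq2, and 0 of the 10 values had an unadjusted p under 0.05 in either edgeR fit. With the block, 0% of all genes were called for d -14 to d 1 and 0.00789% for d -14 to d 8. The CALCRL change from d -14 to d 8 was 0.27 higher in J than in H-F calves (95% confidence interval -0.10 to 0.63, edgeR adjusted p = 0.694 with the block). That of CDH5 was -0.44 (95% confidence interval -1.09 to 0.21, edgeR adjusted p = 0.71 with the block). The intervals leave room for changes as large as those of the H-F calves themselves, so the decrease of CALCRL in H-F calves was not shown to differ from that in J calves.

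Much of the variation in these genes lay between calves. After removal of the mean of each breed on each day, 95.7% of the remaining variation in JAM2 log2 CPM was between calves, rank 155 from the top of 12677 genes, where the median gene had 61.7% and a gene without calf differences would have 33.3%. JAM2 in J calf 9 was 5.55 CPM on d -14, 5.19 CPM on d 1 and 5.14 CPM on d 8, and in J calf 6 it was 0.399, 0.348 and 0.535 CPM. H-F calf 20 held 1.66, 1.63 and 1.54 CPM, while H-F calf 56 held 0.172, 0.0819 and 0.169 CPM. The last rests on 3 to 6 reads per library. These 4 calves are shown as the highest and lowest of each breed, so their unchanged order over the 3 days only describes that choice.

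BMP4 followed with 82.2% between calves, 88.1% among the J calves and 65.9% among the H-F calves. The share was 71.1% for CDH5 and 68.3% for PROX1, somewhat above the median gene. For CALCRL it was 51.4%, below that of the median gene.

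**Figure D4:**
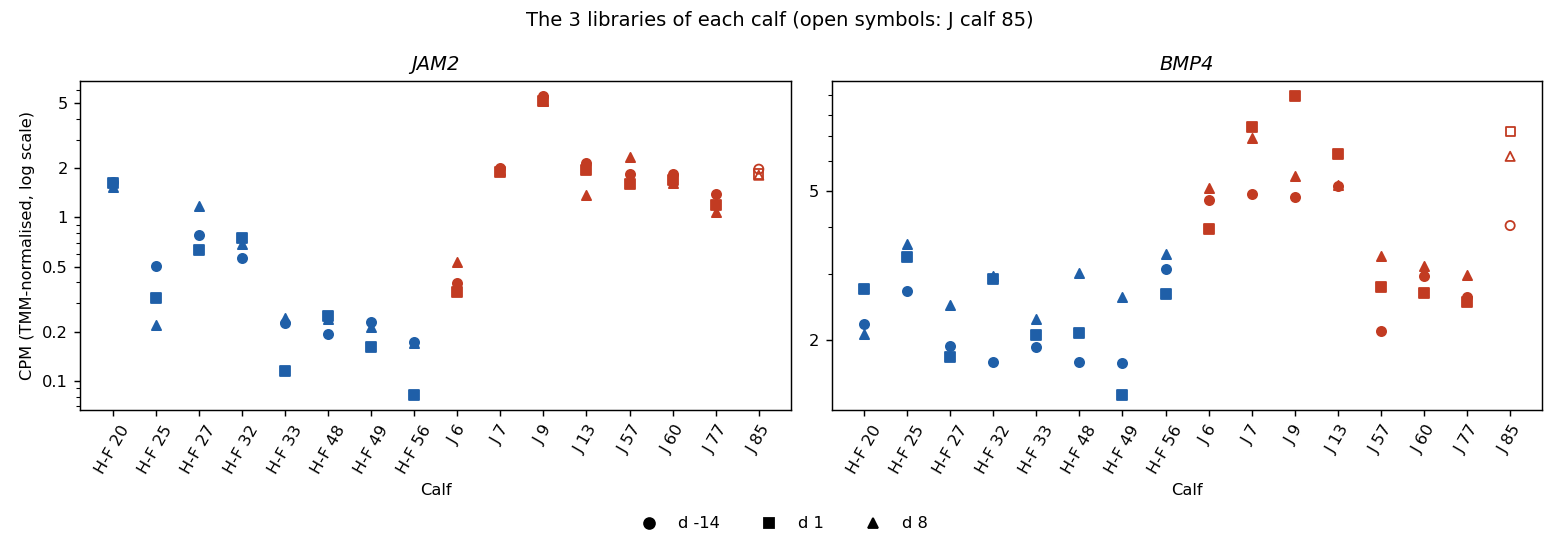
The 3 libraries of each calf for JAM2 and BMP4, as CPM on a log axis, with the day shown by the symbol, H-F calves in blue and J calves in red. The highest and lowest JAM2 levels of a calf differ from 1.06-fold (J calf 7) to 2.29-fold (H-F calf 25), and BMP4 separates J calves 6, 7, 9 and 13 from J calves 57, 60 and 77.

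No pair of the 5 genes passed a test for varying together from calf to calf. Over calf means within breed, 20 relations between pairs of genes were computed (10 pairs in each breed), and 0 had an adjusted p under 0.05 in the exact permutation test. The strongest was JAM2 with PROX1 in the 7 J calves (Pearson r = 0.854, exact permutation p = 0.0161, adjusted p = 0.321, Spearman rho = 0.643, exact permutation p = 0.139, adjusted p = 0.654). It rested on the calves farthest from the median of JAM2, since r was 0.133 without them. Among the 8 H-F calves the same pair gave r = 0.0663.

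The genes most like each of the 5 were sought over the 45 libraries, by Pearson correlation of log2 CPM with the mean of each breed on each day subtracted. The libraries come from 15 calves, so that these correlations are descriptions, and most of the leading genes had an identifier but no symbol. PROX1 was most like ENSBTAG00000009903 (r = 0.887), and among genes with a symbol it was most like NAV3 (r = 0.856) and the B-cell transcription factors PAX5 (r = 0.844) and EBF1 (r = 0.838). CALCRL had r = 0.735 with GDA, guanine deaminase, r = 0.712 with ADCY9, an adenylate cyclase, and r = 0.711 with OLR1, a scavenger receptor. CDH5 had r = 0.618 with ABCA6, 0.561 with STRIP2 and 0.544 with TREML1, a receptor of platelets. JAM2 had r = 0.588 with MMP28, 0.586 with CD22, a B-cell lectin, and 0.584 with LRP11. BMP4 had r = 0.655 with MT1E, a metallothionein, 0.587 with FTSJ2 and 0.580 with ATP2C2. By rank among all genes, those named with a symbol were 3, 5 and 7 for PROX1 and 4, 7 and 8 for CALCRL. They were 2, 11 and 17 for CDH5, 16, 17 and 19 for JAM2 and 5, 26 and 30 for BMP4. The closest gene, each time without a symbol, had r = 0.75 with CALCRL, 0.629 with CDH5, 0.726 with JAM2 and 0.697 with BMP4. Symbols came only from the study's lists of breed differences. The restriction to genes with a symbol was added after these values were seen.

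Lists of blood cell markers were set beside the 5 genes, as whole blood holds these cells. Of 12 B-cell markers 7 were paired with an identifier (among them CD79B, MS4A1, PAX5, EBF1 and CD22), all through the study's lists of breed differences, so that a breed difference was a condition of being looked up. Their summed level ranged from 478 to 1160 CPM in H-F libraries and from 830 to 1915 CPM in J libraries, with medians by day of 804, 903 and 958 CPM in H-F and 1211, 1192 and 1251 CPM in J calves. All 7 had r above 0 with PROX1, from 0.543 to 0.844 with a median of 0.734, PAX5 and EBF1 included. They also had r above 0 with JAM2, from 0.340 to 0.586, and below 0 with CDH5, from -0.373 to -0.0740. With BMP4 6 of the 7 were above 0 (median 0.2) and with CALCRL 1 (median -0.171). The share of all genes with r above the list's median was 0.363% for PROX1, 1.7% for JAM2 and 18.9% for BMP4. It was 74.2% for CALCRL and 86.9% for CDH5. Of the 7, all had a higher estimate in J calves on each day, and 7 were called on d -14, 2 on d 1 and 0 on d 8. Of all genes 1.58%, 1.89% and 1.2% were called higher on these days. As the 7 were paired through breed differences, nothing is read from their count. The part of these markers in the PROX1 difference was not tested.

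Over calf means PROX1 and the mean log2 CPM of the B-cell markers had r = 0.844 among the H-F calves (exact permutation p = 0.00813, adjusted p = 0.0622, n = 8), which did not reach an adjusted p of 0.05. Spearman's rho there was 0.595 (exact permutation p = 0.132, adjusted p = 0.570), and r was 0.646 without the calves farthest from the median. In the 7 J calves r was 0.894 (exact permutation p = 0.00933, adjusted p = 0.0622) and rho 0.750 (exact permutation p = 0.0663, adjusted p = 0.442), with r = 0.571 without the farthest calves. These belong to 20 relations (5 genes, 2 marker lists, 2 breeds) that were added after the data had been seen.

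Of 20 platelet markers 9 were paired, again through the lists of breed differences, with a summed level of 277 to 899 CPM in H-F libraries and 95.8 to 388 CPM in J libraries. Of the 9, 8 had a lower estimate in J calves on each day (4, 7 and 6 called lower, in order of day), and the exception was the growth factor PDGFA, with log2 fold changes of 0.76, 0.86 and 1.04. Among all genes 2.52%, 1.84% and 1.93% were called lower on these days, and again nothing is read from the count of the markers. PF4, a chemokine of platelet granules, had -0.82, -1.26 and -1.47 in order of day. The markers' r with CDH5 ranged from -0.376 for PDGFA to 0.544 for TREML1, with 8 of 9 above 0 and a median of 0.398. All 9 were above 0 with JAM2 and with BMP4 (medians 0.153 and 0.186), 2 with PROX1 and 0 with CALCRL. The share of all genes with r above the list's median was 1.8% for CDH5, 26.3% for JAM2 and 20.9% for BMP4. The part of platelet RNA in the CDH5 difference was not tested.

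Over calf means the platelet markers and CDH5 had r = 0.794 in the 7 J calves (exact permutation p = 0.0429, adjusted p = 0.171) and rho = 0.571 (exact permutation p = 0.200, adjusted p = 0.571), with r = 0.586 without the farthest calves. Among the H-F calves r was 0.117. JAM2 went with the platelet markers among the 8 H-F calves (r = 0.878, exact permutation p = 0.00293, adjusted p = 0.0585, rho = 0.929, exact permutation p = 0.00223, adjusted p = 0.0446), and r was 0.742 without the farthest calves. In the J calves the same r was -0.480, and there JAM2 had r = 0.871 with the B-cell markers (exact permutation p = 0.0194, adjusted p = 0.0972), which rested on calves 6 and 9, since r was 0.125 without the farthest calves. CALCRL and BMP4 had adjusted p of at least 0.637 with either list in the exact permutation tests.

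**Figure D5:**
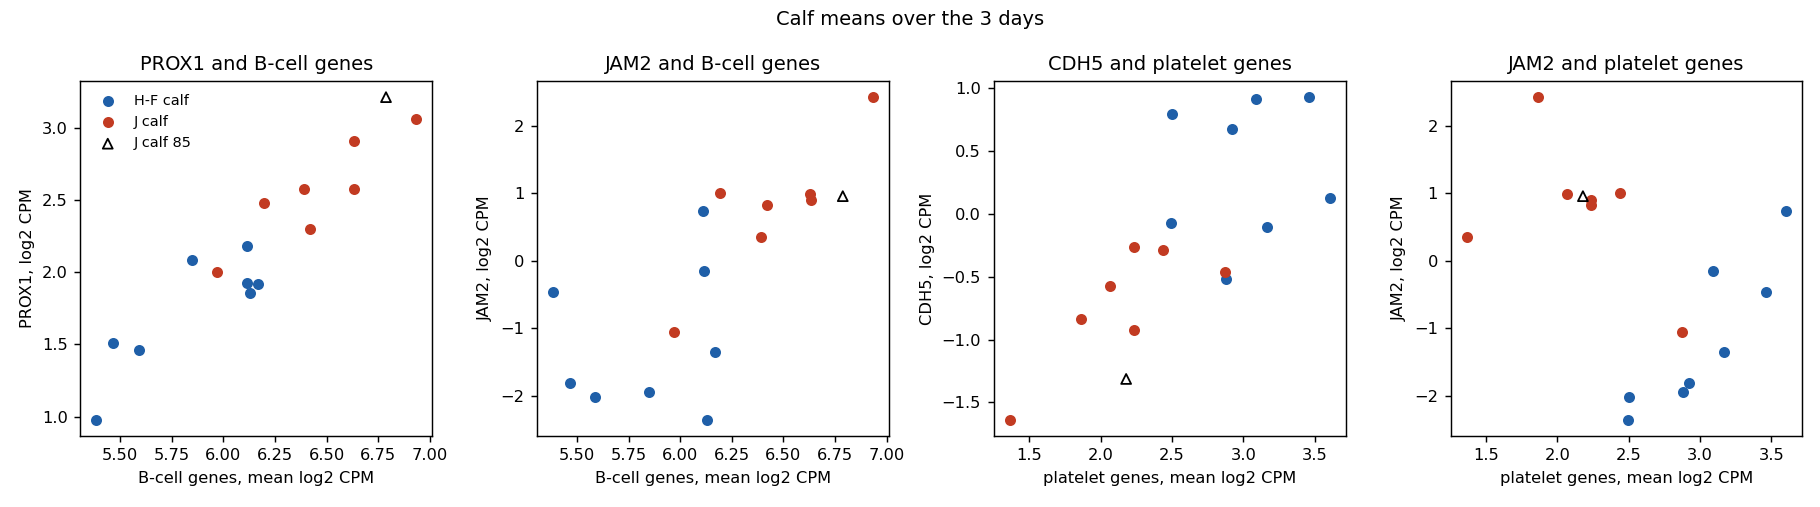
Calf means of log2 CPM over the 3 days, for PROX1 and JAM2 against the B-cell markers and for CDH5 and JAM2 against the platelet markers. Blue points are H-F calves (n = 8), red points J calves (n = 7) and open triangles J calf 85. PROX1 against the B-cell markers has r = 0.844 among H-F and 0.894 among J calves (adjusted exact permutation p = 0.0622 for each), and JAM2 against the platelet markers has r = 0.878 among H-F and -0.480 among J calves, a difference that was not itself tested.

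Few of the other genes around the 5 could be looked up, and each pair of symbol and identifier came from a list of breed differences, so the counts that follow say nothing about a pathway. Of 10 genes of adherens junctions, other cadherins among them, 4 were paired. The neural cadherin CDH2 was higher in J calves (log2 fold changes of 0.86, 1.39 and 1.45 in order of day, called on each). JUP, plakoglobin, was lower and called on d -14 (-0.93), PTPRB, the phosphatase that associates with VE-cadherin, was lower and called on d -14 and d 8 (-0.77 and -0.67), and the epithelial cadherin CDH1 was called on 0 days. Of 12 genes of the JAM family and its partners the 1 paired was F11R, junctional adhesion molecule A, lower and called on d 1 and d 8 (-0.66 and -0.76). Of 16 genes around CALCRL the 1 paired was ADCY9, lower and called on d -14 (-0.62). Of 28 BMP pathway genes the 1 paired was SMAD1, a mediator of BMP signals inside the cell, higher and called on each day (1.23, 1.19 and 1.31). Of the blood-vessel markers, MMRN2 was lower and called on each day (-0.70, -0.80 and -0.87) at a mean of 0.991 CPM in H-F and 0.606 CPM in J calves on d -14. VWF, which platelets and megakaryocytes also hold, was lower and called on d 8 (-0.83). In the correlations over the 45 libraries, r with CDH5 was 0.0206 for MMRN2 and -0.078 for VWF. Over all 5 genes r ranged from -0.0705 to 0.11 for MMRN2 and from -0.223 to 0.263 for VWF. In the other cell lists, the monocyte receptor MSR1 was the 1 of 12 monocyte markers paired and was lower and called on each day (-1.20, -1.24 and -1.38). Of 15 T and NK cell markers 3 were paired, and GZMA, a granule protease, was lower and called on each day (-0.70, -0.92 and -0.64). In neutrophils 2 of 9 markers were paired, in fibroblasts and mural cells 1 of 10 and in erythroid cells 0 of 13, with none called on all 3 days.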

How the data were processed

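Whole-blood RNA was extracted, libraries were made from total RNA with an unstranded kit, and reads were checked with FastQC 0.10.0, aligned with STAR to UMD3.1 and counted per gene with HTSeq (submitters' processing notes; for the last 2, versions were not given in the sources used here). The authors deposited raw counts for 48 libraries. All columns were mapped to samples by their titles, and 0 were left over. The 92 ERCC spike-ins were left out. J calf 85 was left out because the published analysis removed 1 unnamed J calf, and leaving out this calf gave mean levels closest to the published ones. Genes above 1 CPM in at least 8 libraries were kept and normalised by TMM. edgeR 4.0.16 (R 4.3.3) quasi-likelihood tests were run on the counts of 15 calves with 1 mean for each of 6 groups, with Benjamini-Hochberg adjustment over 12677 genes. A gene was called at a fold change of 1.5 and an FDR under 10%. The same-numbered libraries are the same calf, so the calf was added as a block in a second fit. limma 3.58.1 and DESeq2 1.42.0 were alternatives. Log2 CPM used a prior count of 2. Correlations over calves were tested by two-sided exact permutation over all pairings, with the code checked against scipy 1.17.1. For Spearman's rho without ties the smallest possible p in this test is 4.96e-05 with 8 calves and 0.000397 with 7. Scripts were tested on simulated data.

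Named genes were the 5, the genes most like them (3 each), every paired gene of the vessel and pathway lists, a few B-cell markers as examples chosen after their values were seen, and the genes of 13 marker and pathway lists (189 symbols, of which 32 were paired with an identifier) called on all 3 days, 1 of which is not reported here. The genes and lists were chosen with earlier results of these data known. Tables with the authors' own fold changes were used for the pairing of symbols and the check of the calf only. No sequence or position is given, since no genome of UMD3.1 was used here.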

Additional observations from a re-analysis of the deposited data

Results flagged for a closer look

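In none of the 30 groups (5 genes, 2 breeds, 3 days) did 1 calf stand apart from the others of its breed and day by the 95% critical value of Dixon's ratio on log2 CPM, where chance would mark about 1 group in 20. J calf 9, with the highest JAM2 level of the 15 calves, was not marked on any day.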

How the results depend on the processing

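Of the 315 breed differences recomputed (5 genes, 3 days, 21 alternatives), 305 stayed past the call limits and all 315 kept their direction. The 10 lost calls are those named with their calves above. Since the genes were picked on this contrast in these same libraries, the counts only describe the estimates and are no support for a breed difference. The number of the 5 genes called on d -14 ranged from 3 (without J calf 57, where CDH5 and PROX1 were lost) to 5 when calves were left out in turn, and on d 8 from 4 to 5. The calf block left the number of day changes called at 0 in edgeR. In limma-voom with the calf as a random effect, the number called from d -14 to d 8 in H-F calves was 1 (CDH5). For relations with the marker lists, the number with an adjusted p under 0.05 was 1 with d -14 alone (platelet markers and CDH5 in J calves, r = 0.95, adjusted p = 0.0397) and 2 with all 16 calves (platelet markers and JAM2 in H-F calves, r = 0.88, and B-cell markers and PROX1 in J calves, r = 0.89, both adjusted p = 0.0337). The alternatives for the gene lists were not run, since fewer than 80% of each list had an identifier. CDH5 and JAM2 rest on few reads, and without the calf block their SEs are the widest of the 5.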
